A study of Homo sapiens with 6 samples.

Results

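Non-muscle myosin II is the motor that pulls on actin filaments in cells outside muscle. It is built from heavy chains, which carry the motor and a coiled tail, and from an essential and a regulatory light chain bound to the neck of each heavy chain. Kinases switch the motor on by phosphorylating the regulatory light chain, and myosin phosphatase, which is brought to its substrate by a targeting subunit, switches it off. The genes followed here encode an essential light chain (MYL6), regulatory light chains (MYL12A and MYL12B), heavy chains (MYH9, MYH10 and MYH14), the unconventional myosins MYO6 and MYO18A, and the targeting subunit of the phosphatase (PPP1R12A). They were chosen by gene symbol. An alternative splicing (AS) event of these genes was kept where its inclusion and skipping reads came to a mean of at least 10 over the 6 libraries, which held for 59 of the 78336 events listed.

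RNA was sequenced from NCI-H1975, an established human lung adenocarcinoma cell line. The cells had been transfected by lipofection, either with a PCDNA3.1 plasmid that carries SAM68 (3 libraries, called SAM68 below) or with the PCDNA3.1 plasmid alone (3 libraries, called control), at 2 µg per well in each group, and were taken after 48 h. SAM68, encoded by KHDRBS1, is an RNA-binding protein that acts on the choice of splice sites, and the comparison asks how splicing differs when more of it is present. All cells came from 1 line, so the libraries describe that line, and p-values concern the spread between these libraries only. In the main test of events, this spread is 1 value shared by all events of a type, not that of the single event.

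Each value counts reads across splice junctions, either those of the form that includes a segment or those of the form that skips it. They cover skipped exons (SE), mutually exclusive exons (MXE), alternative 3ʹ splice sites (A3SS), alternative 5ʹ splice sites (A5SS) and retained introns (RI). Skipped exon events held 18114969, 19645856 and 18627563 junction reads across the control libraries against 19737729, 16951876 and 17007769 across the SAM68 libraries. The lists of counts carry no library names, and the libraries are given here in list order. Which list belongs to which group was read from values printed in a picture of the study's PKM result, not from a label of the tables. Exchanging the lists would reverse the sign of every difference and leave every p-value as it is.

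KHDRBS1 (ENSG00000121774.17) was examined first. Each gene was represented by its best covered event, put on the reads-per-million (rpm) scale over all such events. KHDRBS1 had 311, 328 and 316 rpm across the control libraries against 1230.4, 1259.7 and 1276 rpm across the SAM68 libraries. Every SAM68 library lay above every control library, so the list taken as SAM68 is the one with more KHDRBS1 reads. Mean KHDRBS1 was 318.5 ± 8.91 rpm (SD, n = 3) and 1255 ± 23.1 rpm (SD, n = 3), a log2 fold change of 1.98 (standard error 0.05, adjusted p = 1.16e-21 from limma). The exact permutation test, two-sided, gave p = 0.1, the smallest value that 3 against 3 libraries allow. The count cannot separate plasmid transcripts from those of the cells' own gene.

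The cell type of the label was checked against marker genes, on a scale of junction reads in rpm per effective junction length. Of 6 epithelial markers, KRT7, KRT8 and KRT18 had a listed event. Their summed level was 736, 614 and 614 across the control libraries against 646, 643 and 648 across the SAM68 libraries, with KRT18 as the most abundant gene. The level of KRT18 was 471, 484 and 492 across the control libraries and higher in each SAM68 library, at 521, 524 and 530.0. The level of KRT7 was 4.43, 2.92 and 3.51 across the control libraries and lower in each SAM68 library, at 1.26, 1.66 and 2.20. Neither these nor KRT8 passed limma (adjusted p of 0.305, 0.383 and 0.254), although each had an unadjusted p under 0.05. KRT8 stood apart in the control library in list position 1, with a level of 261 against 127 and 118 in the other control libraries. Of 3 lung adenocarcinoma markers only NAPSA was listed, at a level of 0 to 0.523. In the smooth muscle list 1 of 7 genes was listed (SMTN, at a level of 7.11 to 10.9), in the fibroblast list 1 of 4 (DCN, at 0 to 0.917), in the leukocyte list 1 of 4 (CD68, at 48.2 to 54.2) and in the striated muscle list 0 of 6. A gene without an AS event has no value in these tables, so its absence says nothing of its level. The part of these markers in the results that follow was not tested.

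Inclusion was expressed as percent spliced in (PSI), the share of the inclusion form once counts had been scaled by the effective lengths. The tables held 61 events in 7 of the 9 genes, namely 25 of MYL6, 12 of PPP1R12A, 11 of MYO18A, 5 of MYO6, 4 of MYH10, 2 of MYH9 and 2 of MYL12A. MYH14 and MYL12B had no listed event and were not analysed here. Of the 61 events, 2 fell below the minimum of reads (1 of MYL6 and 1 of MYO6) and 3 A3SS events of MYL6 had lists of counts that could be divided in more than 1 way, so that 56 events were tested. They were 34 SE, 3 MXE, 7 A3SS, 4 A5SS and 8 RI events, with a mean of 11.7 to 7782 reads per library.

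None of the 56 events passed the quasi-binomial test with limma moderation, which required an adjusted p under 0.05 and a ∆PSI, SAM68 minus control, of at least 10 percentage points. Over all events tested, 62 of 66395 passed (0.0934%), so that a count of 0 in 56 is near the background. An unadjusted p under 0.05 was reached by 7 of the 56 events (12.5%), each of them an event of MYL6, and by 5.95% of all events. The other tools called none of the 56 either, and an unadjusted p under 0.05 was reached by 4 events when each event kept its own spread, by 0 with limma on logit-transformed PSI and by 13 with a likelihood ratio test on pooled counts. In the quasi-binomial test the smallest adjusted p was 0.272. The likelihood ratio test gave adjusted p-values under 0.05 to events of MYL6, which were not called because they differed by less than 10 points. PSI was higher in the SAM68 libraries in 31 events and lower in 25. The median ∆PSI was 0.297 points, and 0.00500 points over all events. The median absolute ∆PSI was 0.799 points, and 1.24 points over all events. An absolute ∆PSI of at least 10 points was seen in 2 of the 56 events (3.57%, against 7.17% of all events). Most of these events were far from an even choice of forms. The mean PSI lay under 5% in 20 events, over 95% in 23 and between these limits in 13 (23.2%, against 32.3% of all events).

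**Figure D1:**
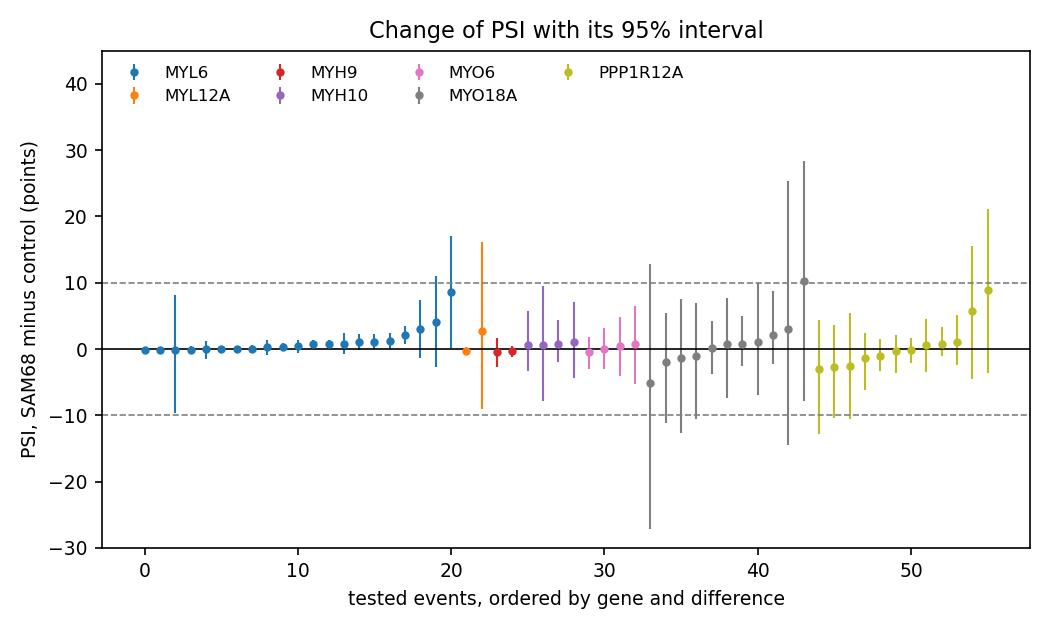
Each point is 1 of the 56 tested events, grouped by gene in colour, and gives the difference of PSI between the pooled reads of the groups (SAM68 minus control, percentage points), with bars for the 95% interval. The dashed lines mark the limit of 10 points, and bars reach past it in events of several genes.

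MYL6 (ENSG00000092841.18, + strand of chromosome 12) encodes the essential light chain, which stiffens the neck of the heavy chain. Its best known alternative exon is exon 6 of the canonical transcript, 45 nt long (chr12:56160626-56160670), which decides how the protein ends. Where exon 6 is included, its reading frame stops inside the exon, and where it is skipped, the frame runs into the next exon. The choice of end is the point of this event, so both coding ends are shown from GRCh38, with 20 nt of intron in lower case and the exon up to and including the stop codon in capitals. Each holds 26 coding nt before the stop codon. The end in exon 6 covers chr12:56160626-56160654 and the end in the following exon covers chr12:56161387-56161415, without the intron.
MYL6 end in exon 6: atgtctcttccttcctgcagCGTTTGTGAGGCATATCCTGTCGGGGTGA
MYL6 end after exon 6 is skipped: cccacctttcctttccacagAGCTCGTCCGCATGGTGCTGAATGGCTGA

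Exon 6 of MYL6 showed a PSI of 16.9%, 17.5% and 17.6% across the control libraries against 16.4%, 19.8% and 18.5% across the SAM68 libraries. The groups overlapped, because the lowest and the highest value were both SAM68 libraries, and the form that skips the exon prevailed in every library. Each library had 2430 to 3314 reads of this event, and the mean PSI was 17.3% ± 0.364 (SD, n = 3) in controls and 18.2% ± 1.73 (SD, n = 3) with SAM68. The difference of 0.894 points did not pass the test (adjusted p = 0.699, exact permutation test, two-sided, p = 0.5). The 95% interval, which is made for the difference of pooled reads and covers the spread shared by events of a type, ran from -0.719 to 2.38 points. A difference as large as the 10 point limit lies outside it. The difference came to 0.0944 points with the SAM68 library in list position 2 left out and to 1.81 points with the one in list position 1 left out.

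The smallest p of the set came from exon 3 of MYL6, a coding exon of 144 nt (chr12:56159587-56159730). In this A3SS event, reads that join the start of exon 3 are set against reads that join the start of exon 4 (56159975) and so leave exon 3 out. The PSI of the exon 3 site was 93.2%, 92.3% and 94.0% across the control libraries against 95.3%, 95.6% and 95% across the SAM68 libraries. Every SAM68 library lay above every control library, although the gap between the groups was small. The difference was 2.12 points (95% interval 0.805 to 3.48 points), with 3084 to 3874 reads per library, and 1.13 points when counts were not divided by length. Its unadjusted p of 0.00161 became 0.272 after adjustment over all A3SS events tested with limma moderation, and the exact permutation test, two-sided, gave p = 0.1. Over the alternative settings its adjusted p lay between 0.000245 and 0.917.

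The SE event of the whole of exon 3, chosen after its values were seen because it had the most reads of the gene, showed a PSI of 97.0%, 96.6% and 97.4% across the control libraries against 97.8%, 97.9% and 97.7% across the SAM68 libraries. Exon 3 was thus nearly always included, and a little more so in each SAM68 library. The difference was 0.808 points (95% interval 0.206 to 1.43 points, adjusted p = 0.637 with limma moderation, within 0.00505 to 0.897 over the alternatives), and 0.415 points when counts were not divided by length. The junction that leaves exon 3 out had 110, 137 and 108 reads across the control libraries against 93, 83 and 79 across the SAM68 libraries. Scaled to the depth of the libraries this was 19.0, 21.8 and 18.1 rpm across the control libraries against 14.7, 15.2 and 14.5 across the SAM68 libraries. All SAM68 libraries had fewer such reads than all control libraries. A shorter listed form of the exon, 108 nt long (chr12:56159623-56159730), shares this junction, and its PSI was 94.3%, 93.5% and 95.1% across the control libraries against 95.5%, 95.7% and 95.1% across the SAM68 libraries. These groups lay next to each other without overlap. The difference was 1.20 points (95% interval 0.0111 to 2.40 points, adjusted p = 0.699 with limma moderation, within 0.0491 to 0.903 over the alternatives). It came to 0.688 points when counts were not divided by length. This PSI does not measure the use of the shorter form, since the junction from exon 3 to the next exon is common to both forms. Reads that join the exon before to the start of the shorter form came to 0 in the control libraries and 2 in the SAM68 libraries. Nearly all inclusion reads of this event thus come from the common junction.

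In 10 of the 56 events the PSI of the groups did not overlap, all of them events of MYL6, where 6.45% of all tested events showed no overlap. The differences of these 10 events ran from -0.165 to 8.15 points. They are not separate observations. The junction that leaves exon 3 out supplies the skipping reads of 6 of the 10 events, and 9 of the 10 share a list of reads with at least 1 other of them.

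**Figure D2:**
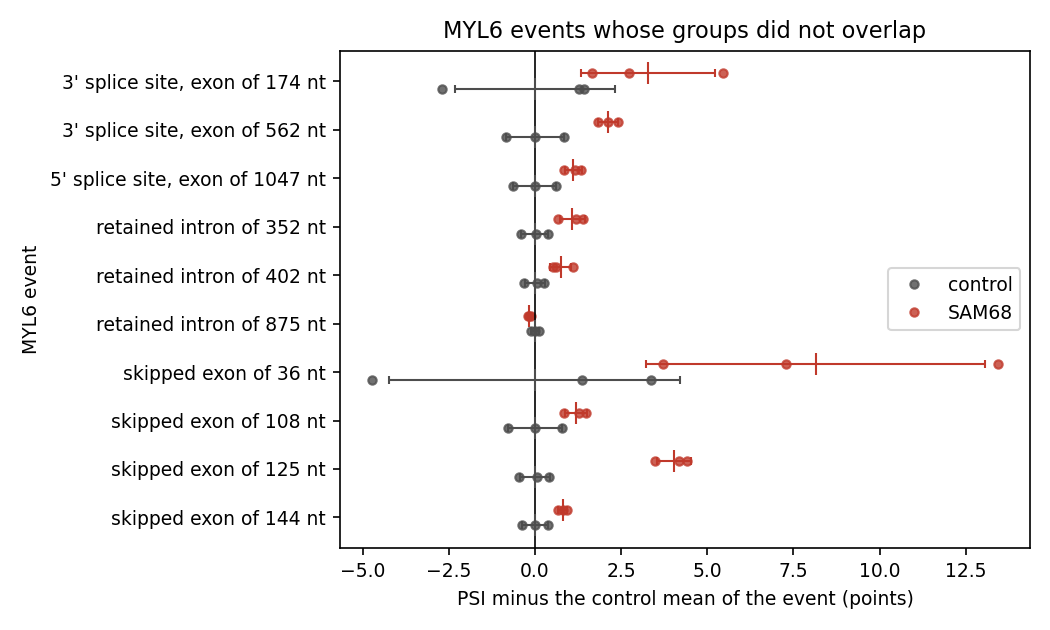
The 10 MYL6 events without overlap, named by type and length, with the PSI of each library minus the control mean of the same event (percentage points). Points are libraries, and vertical marks and bars give the mean and SD of the 3 libraries of each group. The groups stand apart in each event, by less than 10 points on average, and 9 of the 10 events share reads with another.

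The regulatory light chain, which carries the phosphorylation that turns the motor on, was represented by MYL12A (ENSG00000101608.12, + strand of chromosome 18). Its listed exons are untranslated or lie in noncoding transcripts. Neither is coding in an annotated transcript, and an effect on the protein was not tested. The 83 nt exon (chr18:3249361-3249443) showed a PSI of 0.808%, 1.24% and 2.38% across the control libraries against 1.09%, 1.32% and 1.23% across the SAM68 libraries. The exon was rare in every library, and the SAM68 values lay inside the range of the control values. The difference was -0.265 points (95% interval -0.884 to 0.341 points, adjusted p = 0.699 with limma moderation), with 1105 to 1542 reads per library, and 0.187 points with the control library in list position 3 left out. It came to -0.420 points when counts were not divided by length. The 162 nt exon (chr18:3249562-3249723) showed a PSI of 20%, 23.1% and 6.19% across the control libraries against 14.3%, 10.2% and 24.5% across the SAM68 libraries. Libraries of either group were spread over the whole range, with 24 to 60 reads in each. The difference of -0.0845 points (95% interval of the pooled reads -8.98 to 16.2 points, adjusted p = 0.821) was positive with the control library in list position 1 (1.70) or 2 (3.24) or the SAM68 library in list position 1 (0.942) or 2 (2.98) left out, and a difference of this size was not detectable at this depth.

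Among the heavy chains, MYH9 (ENSG00000100345.21) encodes the form known as myosin IIA and MYH10 (ENSG00000133026.12) the form known as IIB. Both listed events of MYH9 (- strand of chromosome 22) were included in nearly all reads. Exon 2, 352 nt long and partly coding (chr22:36348904-36349255), showed a PSI of 99.8%, 100% and 100% across the control libraries against 99.4%, 100% and 99.7% across the SAM68 libraries. The ranges of the groups overlapped, and skipping rested on 1 read in the control group, beside 2848 reads of inclusion, and on 4 reads in the SAM68 group, beside 2531. The difference was -0.236 points (95% interval -1.17 to 0.473 points, adjusted p = 0.699 with limma moderation), -0.0707 or -0.389 points with SAM68 library 1 or 2 of the list left out, and -0.118 points when counts were not divided by length.

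MYH10 (- strand of chromosome 17) has a 30 nt coding exon, exon 6 of the canonical transcript (chr17:8576643-8576672), that adds an insert to a loop of the motor near the ATP site and is best known from nerve cells. It is shown because it is the only exon of 31 in this set without GT after it, with a GC in that place. The exon is in capitals, with 20 nt of intron on each side in lower case, written 5ʹ to 3ʹ on the - strand of GRCh38.
MYH10 loop exon: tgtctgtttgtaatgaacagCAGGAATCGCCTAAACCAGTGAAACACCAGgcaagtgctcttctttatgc

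The loop exon of MYH10 showed a PSI of 0% in each control library and of 0%, 2.45% and 0% across the SAM68 libraries. It was seen in 1 library, with 2 reads, and the other libraries had none. In the control libraries 0 of 271 reads included it, so that its share may reach 1.11% (3 reads, counting error only). In the SAM68 libraries it was 2 of 225 reads, and the difference of 0.818 points (95% interval -1.94 to 4.41 points) did not pass the test (adjusted p = 0.699 with limma moderation) and was 0 points with the library that holds these reads left out. The MYH10 exon with an intermediate PSI is a 74 nt exon, untranslated or noncoding (chr17:8623424-8623497). Its PSI was 16.7%, 13.4% and 20.8% across the control libraries against 18.1%, 16.5% and 17.0% across the SAM68 libraries. The SAM68 libraries lay within the range of the control libraries, at 70 to 118 reads per library. The difference was 0.270 points (95% interval -7.84 to 9.54 points, adjusted p = 0.954), and it was negative with the control library in list position 2 (-1.50 points) or the SAM68 library in list position 1 (-0.187 points) left out.

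MYO6 (ENSG00000196586.13, + strand of chromosome 6) encodes myosin VI, which moves toward the minus end of actin filaments and works in endocytosis through cargo bound to its tail. Alternative exons of the tail are known to direct it to different cargo. The listed exon of 30 nt (exon 29, chr6:75895231-75895260) is coding and keeps the frame. It is shown 5ʹ to 3ʹ on the + strand of GRCh38, exon in capitals and 20 nt of intron on each side in lower case, so that the insert can be read beside its low use.
MYO6 exon of 30 nt: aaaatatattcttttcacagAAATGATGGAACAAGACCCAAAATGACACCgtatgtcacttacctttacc

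The 30 nt exon of MYO6 showed a PSI of 0%, 0.881% and 0% across the control libraries against 0.765%, 0% and 0% across the SAM68 libraries. It thus rested on 1 read in each group, and its difference took the other sign with the control library in list position 2 (0.255 points) or the SAM68 library in list position 2 or 3 (0.0891 points each) left out. A 93 nt exon, partly coding (chr6:75867431-75867523), showed a PSI of 0%, 1.33% and 0% across the control libraries and of 0% in each SAM68 library. It was included by 2 of 234 control reads, all from control library 2 of the list, and by 0 of 217 SAM68 reads, so that the share may reach 1.38%. The difference was 0 points with that control library left out and -0.749 points when counts were not divided by length. The differences of these exons, -0.0385 points (95% interval -3.03 to 3.16 points) and -0.443 points (95% interval -3.08 to 1.86 points), did not pass the test, and with so few inclusion reads a shift of a few points was not detectable.

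MYO18A (ENSG00000196535.16, - strand of chromosome 17) encodes an unconventional myosin with little motor activity of its own that links the Golgi to actin. Its level was the lowest of the set. Its cassette exon with an intermediate PSI is 45 nt long and coding (exon 40, chr17:29085604-29085648). It is shown 5ʹ to 3ʹ on the - strand of GRCh38 because it gave 1 of the 2 differences above 10 points, with the exon in capitals and 20 nt of intron on each side.
MYO18A exon of 45 nt: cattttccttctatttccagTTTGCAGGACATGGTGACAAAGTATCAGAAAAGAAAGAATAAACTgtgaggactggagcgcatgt

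The 45 nt exon of MYO18A showed a PSI of 33.7%, 13.4% and 3.99% across the control libraries against 24.6%, 39.9% and 18.9% across the SAM68 libraries. The groups overlapped, since the control library in list position 1 lay above 2 of the 3 SAM68 libraries. Mean PSI was 17.0% ± 15.2 (SD, n = 3) in controls and 27.8% ± 10.8 (SD, n = 3) with SAM68. The difference of 10.8 points (95% interval of the pooled reads -7.84 to 28.4 points) was smaller than the spread of the control libraries and did not pass the test (adjusted p = 0.699 with limma moderation, exact permutation test, two-sided, p = 0.4). The event had 19 to 37 reads per library. With 1 library left out its difference ran from 4.26 points, when this was control library 3 of the list, to 19.1 points, when it was control library 1. It was also under 10 points with control library 2 (8.96 points) or SAM68 library 2 (4.74 points) left out. The event of MYO18A with the smallest p was the retention of an intron of 127 nt (chr17:29121724-29121850), with a PSI of 1.72%, 0% and 0% across the control libraries against 7.51%, 0% and 0% across the SAM68 libraries. Retention was seen in 1 library of each group, and rested on 1 and 4 reads. The difference was 1.93 points (95% interval -2.20 to 8.69 points, adjusted p = 0.844), and leaving out the SAM68 library in list position 1 turned it to -0.574 points. It came to 3.49 points when counts were not divided by length.

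PPP1R12A (ENSG00000058272.18, - strand of chromosome 12) encodes the subunit that directs myosin phosphatase to the regulatory light chain. Its central region, between the ankyrin repeats and the leucine zipper end, is known to be spliced in several ways. The tested events there concern exon 13 (168 nt, chr12:79806166-79806333) and exon 14 (177 nt, chr12:79805592-79805768), both coding and a multiple of 3 in length, and a form of exon 13 that begins 36 nt later at a second 3ʹ splice site (132 nt, chr12:79806166-79806297). Both forms are shown 5ʹ to 3ʹ on the - strand of GRCh38, with the exon of that form in capitals and 20 nt on each side in lower case.
PPP1R12A exon 13: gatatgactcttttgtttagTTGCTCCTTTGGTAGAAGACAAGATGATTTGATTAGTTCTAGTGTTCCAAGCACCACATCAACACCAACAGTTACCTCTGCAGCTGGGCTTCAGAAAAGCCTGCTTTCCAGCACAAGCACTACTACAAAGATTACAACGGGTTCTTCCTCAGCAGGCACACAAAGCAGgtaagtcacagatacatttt
PPP1R12A shorter form of exon 13: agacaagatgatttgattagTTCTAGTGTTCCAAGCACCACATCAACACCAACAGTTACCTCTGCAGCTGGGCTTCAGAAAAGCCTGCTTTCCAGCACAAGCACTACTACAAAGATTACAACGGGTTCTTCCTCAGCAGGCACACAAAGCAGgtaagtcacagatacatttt

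Exon 13 of PPP1R12A, skipped or included before exon 14, showed a PSI of 60.8%, 66.8% and 65.4% across the control libraries against 72.6%, 77.3% and 64.7% across the SAM68 libraries. In the SAM68 group 2 libraries lay above every control library, and the library in list position 3 lay among the control libraries. The difference was 7.17 points (95% interval of the pooled reads -4.50 to 15.6 points, adjusted p = 0.699 with limma moderation, exact permutation test, two-sided, p = 0.3), at 117 to 215 reads per library. The shorter form of exon 13 showed a PSI of 37.6%, 53.7% and 47.4% across the control libraries against 62.2%, 63.0% and 47.0% across the SAM68 libraries. The same SAM68 library fell back among the controls here. Both events use the same skipping reads, and the cause was not tested. The difference was 11.2 points (95% interval of the pooled reads -3.60 to 21.1 points, adjusted p = 0.699 with limma moderation, exact permutation test, two-sided, p = 0.3). It came to 6.88 points with the control library in list position 1 left out, 8.77 or 8.40 points with the SAM68 library in list position 1 or 2 left out, 16.4 points with that in list position 3 left out, and 9.72 points when counts were not divided by length. For the whole of exon 13, the difference came to 4.29 points with the SAM68 library in list position 2 left out, and to 10.6 points with that in list position 3 left out. This PSI of the shorter form does not measure the use of the second 3ʹ splice site, since the junction from exon 13 to exon 14 is common to both forms.

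The A3SS event of the same exon, chosen after its values were seen, sets the 3ʹ splice sites against each other. The longer form showed a PSI of 100%, 98.1% and 97.3% across the control libraries against 100%, 86.7% and 100% across the SAM68 libraries. The second site was thus little used in 5 of the 6 libraries, and 7 of its 10 reads came from the SAM68 library in list position 2. The difference was -2.89 points (95% interval -10.5 to 3.67 points, adjusted p = 0.805 with limma moderation), and 1.53 points with that library left out. In the MXE event, which sets reads of exon 13 against reads of exon 14, the PSI of exon 13 was 36.1%, 28.1% and 37.3% across the control libraries against 27.1%, 32.2% and 34.0% across the SAM68 libraries. The groups overlapped widely. The difference was -2.72 points (95% interval -10.5 to 5.49 points, adjusted p = 0.915 with limma moderation), and it ran from -5.59 points, with control library 2 of the list left out, to -0.711 points, with SAM68 library 1 left out. This PSI does not measure a choice between the exons. Exon 14 itself had a mean PSI of 99.0% after the shorter form of exon 13 and of 99.4% where exon 13 was left out. Reads that pass from exon 13 over exon 14 came to 4 in the control libraries and 1 in the SAM68 libraries. Reads that leave out exon 13 together with exon 14 were nearly absent, with 0 of 235 in the control libraries, so that the share may reach 1.28%, and 3 of 199 in the SAM68 libraries (difference of the inclusion PSI, a mean of 100% against 97.3%, -2.70 points, 95% interval -12.8 to 4.39 points, adjusted p = 0.699). It came to -4.05 or -1.75 points with SAM68 library 2 or 3 of the list left out, and to -1.38 points when counts were not divided by length.

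**Figure D3:**
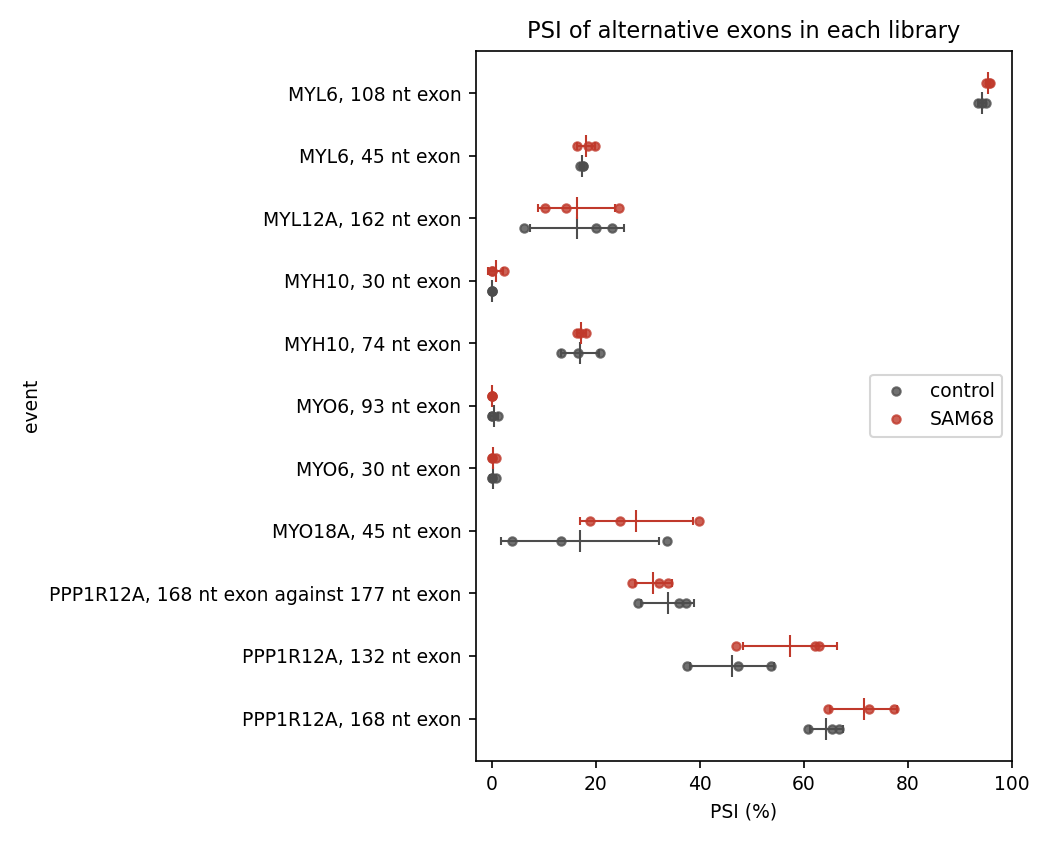
PSI in percent of a part of the SE and MXE exons described in the text, named by gene and length, in each control and SAM68 library. Points are libraries, and vertical marks and bars give the mean and SD of 3 libraries. Among the exons shown, the groups overlap except in the 108 nt exon of MYL6, whose PSI does not measure the use of that form. The widest spread among the exons shown is that of the MYO18A exon. The 144 nt exon of MYL6, whose groups did not overlap either, is not shown.

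The events do not give whole-transcript counts, but the best covered event gives a level for each gene. On the scale of junction reads in rpm per effective junction length, the order of the mean level over the 6 libraries was MYL6 (670.3), MYL12A (229), MYH9 (76.2), PPP1R12A (37.5), MYO6 (11.3), MYH10 (11.3) and MYO18A (6.51). The levels of MYO6 (9.95 to 12.6 over the libraries) and MYH10 (9.64 to 14.4) overlapped and cannot be ordered. All other neighbours in this order had ranges that did not overlap. The level of PPP1R12A rests on an MXE event and equals its rpm (37.2 in control library 1 of the list). Those of the other genes rest on SE events, where division by length can lower the value, as in MYH9 (162 rpm and a level of 81.3 in that library). The level of PPP1R12A may thus stand too high beside theirs. The light chains thus stood above the heavy chains, and MYH9 above MYH10. In these bulk libraries fewer cells of a kind and less RNA per cell cannot be told apart.

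None of the 7 genes passed limma on log2(rpm + 0.5), which required an adjusted p under 0.05 and a log2 fold change of at least 1 in either direction, where 5 of 10147 genes passed (0.0493%). No other tool was run on the genes. An unadjusted p under 0.05 was reached by 1 of the 7 genes and by 1224 of the 10147. The log2 fold changes ran from -0.30 to 0.33 with a median of -0.11, and the median over all genes was -0.03.

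That gene was MYL12A, which had 250.0, 245 and 258 rpm across the control libraries against 214, 215 and 203 rpm across the SAM68 libraries. All SAM68 libraries lay below all control libraries. MYL12A differed by a log2 fold change of -0.25 (standard error 0.06; adjusted p = 0.0645 from limma, exact permutation test, two-sided, p = 0.1), which is below the fold required. MYH10 had 17.8, 17.3 and 16.6 rpm across the control libraries against 20.8, 19.8 and 24.9 rpm across the SAM68 libraries. All SAM68 libraries lay above all control libraries, but the log2 fold change of 0.33 (standard error 0.17) did not pass the test (adjusted p = 0.436 from limma). Summed over all events of MYH10 in place of the best covered one, it was 0.02 (adjusted p = 0.955, within 0.381 to 0.955 over the alternatives). These 2 of the 7 genes had groups without overlap, against 16.8% of all genes. MYL6 had levels of 635, 648 and 693 on the scale per length across the control libraries against 680.1, 743 and 623 across the SAM68 libraries, with overlap of the groups and a log2 fold change of 0.05 (adjusted p = 0.730 from limma), or -0.01 with the SAM68 library in list position 2 left out. The log2 fold changes of MYH9 (-0.11), MYO6 (-0.15), MYO18A (-0.30) and PPP1R12A (-0.09) had adjusted p-values from 0.606 to 0.838, and their groups overlapped. With 1 library left out, the log2 fold change ran from -0.18 to -0.02 for MYH9 and from -0.20 to -0.10 for MYO6, and summed over all events it was -0.01 for each of them and -0.17 for MYO18A. That of PPP1R12A was 0.00 with the SAM68 library in list position 1 left out.

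**Figure D4:**
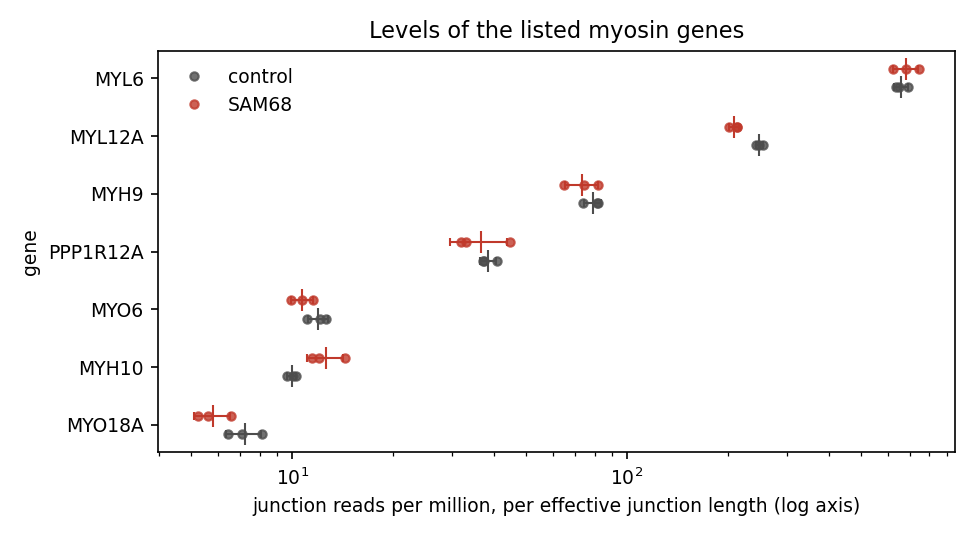
Level of the 7 genes with a listed event, as junction reads in rpm per effective junction length on a log axis, in each control and SAM68 library. Points are libraries, and vertical marks and bars give the mean and SD of 3 libraries. The order of the genes is the same in both groups except for MYO6 and MYH10, while the groups lie close together within each gene.

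The exons were also compared by sequence, which the choice of genes did not use. The tested SE events held 31 distinct exons, of which 21 were coding throughout, 6 partly coding and 4 untranslated or noncoding. The length was a multiple of 3 in 20 of the 31 (64.5%), against 40.5% of the 38685 distinct exons of all tested SE events. Where such an exon is coding, it can be added or left out without a shift of the frame. Overlapping forms were counted apart, so the 31 are not all separate exons. They include forms of 36, 108, 125 and 144 nt at exon 3 of MYL6 and of 132 and 168 nt at exon 13 of PPP1R12A. AG before and GT after the exon were found in 30 of the 31 (96.8%, against 98.4%), and the exception is the loop exon of MYH10. TAAA and TTAA, letters of known SAM68 sites, were counted in the exon and in 100 nt of intron on each side. On the strand of the transcript, TAAA was present in 38.7% of the exons (30.8% of all), in 32.3% of the windows before them (40.9% of all) and in 41.9% of those after them (42.1% of all). On the other strand the shares were 12.9% (29.3% of all), 41.9% (54.8% of all) and 51.6% (49.1% of all). TTAA, which reads the same on both strands, was present in 16.1% of the exons (26.5% of all), in 54.8% of the windows before them (44.3% of all) and in 25.8% of those after them (41.5% of all). TAAA and TTAA can overlap in TTAAA. A match is a description of the letters and not a binding site.

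Around these genes, 69 other genes of the actomyosin system were examined, of which 50 had a listed event. Among them are light chain kinases and parts of the phosphatase (13 of 17 listed), other light and heavy chains (15 of 25), the calmodulins (3 of 3) and binding partners (11 of 14). None of the 44 genes tested for level passed limma in either direction, with an unadjusted p under 0.05 in 7, where 1224 of all 10147 genes had one. Their median log2 fold change was -0.06, within -0.72 to 0.27. None of the 318 events passed the quasi-binomial test, with an unadjusted p under 0.05 in 18 (5.66%) and a median ∆PSI of -0.0400 points. With the likelihood ratio test 4 of the 318 were called, where it called 1357 of all 66395 events, and with own spreads or limma on logit PSI 0, with an unadjusted p under 0.05 in 71, 7 and 7.

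The smallest p among these events belonged to an MXE event of CALM2, which encodes calmodulin, the calcium sensor that activates myosin light chain kinase. Its 107 nt exon (chr2:47162286-47162392) showed a PSI of 65.0%, 65.6% and 61.4% across the control libraries against 66.5%, 69.6% and 74.2% across the SAM68 libraries. All SAM68 libraries lay above all control libraries. The difference of 6.08 points was below the limit of 10 points, and its adjusted p of 6.17e-11 rested on the dispersion shared by MXE events (2.53), where its own was 26.5. With its own dispersion the adjusted p was 0.895, and a limma fit to logit PSI gave 0.829, within 1.36e-29 to 0.895 over the alternatives. The difference came to 7.88 points with SAM68 library 1 of the list left out and to 4.02 points with SAM68 library 3 left out.

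A 56 nt exon of GIPC1, an adaptor that binds the tail of myosin VI, showed a PSI of 59.5%, 59.4% and 60.2% across the control libraries against 72.2%, 100% and 64.5% across the SAM68 libraries. The SAM68 libraries lay above the control libraries, but far from each other. The difference of 19.2 points did not pass the test (adjusted p = 0.110 with limma moderation). It passed with the SAM68 library in list position 3 left out (26.4 points, adjusted p = 0.0186) and came to 8.67 points with the one in list position 2 left out, within an adjusted p of 9.02e-06 to 0.897 over the alternatives. An A3SS event of CALD1, which encodes the actin and myosin binding protein caldesmon, showed a PSI of 97.6%, 95.9% and 100% across the control libraries against 87.1%, 69.4% and 77.7% across the SAM68 libraries. All SAM68 libraries lay below all control libraries, at a mean of 46.2 reads per library. The difference of -19.7 points did not pass the test (adjusted p = 0.171 with limma moderation). An SE event of CALM2, also among the 5 events with the smallest p, differed by 0.184 points (adjusted p = 0.440, within 0.00115 to 0.897 over the alternatives), at a PSI under 1% in every library. It differed by 0.0895 points with SAM68 library 2 of the list left out, by 0.279 points with SAM68 library 1 left out and by 0.366 points when counts were not divided by length.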

How the data were processed

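The authors filtered paired-end Illumina reads, checked them with fastp 0.20.0, trimmed their start, aligned them with HISAT2 2.1.0 to GRCh38 and ran rMATS (its version is not given in the sources used here). CASAVA 1.4 is also named in the submitters' processing notes. The deposited tables, 1 for each of 5 event types, hold for each event the raw junction read counts of both forms, the authors' inclusion level per library (a fraction) and the effective lengths. They also hold the p-value, the FDR and the difference of inclusion levels of the authors' own comparison, which were not used. The lists carry no library names or replicate numbers. The list given first was taken as control because inclusion levels of PKM printed for the control libraries in a picture of the study's figure are those of this list. That is a mapping by values and not by label, and no script used it other than as the group of each list. No column with values per library was left unused.

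Digits of the lists were regrouped in 275 A3SS events. For 162 of them exactly 1 way of splitting the digits returns the levels listed (to 3 decimals), and 113 were left out. Another 679 were taken as printed although a second reading exists, and 19 lines were blank.

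PSI was computed from the counts divided by the effective lengths. For MXE it is that of the exon closer to the 5ʹ end. Events that reached a mean of 10 reads entered a quasi-binomial model (F test) whose dispersion was moderated within each type by squeezeVar of limma 3.58.1 (R 4.3.3) with a floor of 1. A group with a PSI of 0 or 100% added no degrees of freedom. The prior degrees of freedom were infinite, so that events of a type shared 1 dispersion (SE 2.296, A3SS 2.333, A5SS 2.515, MXE 2.530, RI 2.011), which understates the spread of the noisier events. P-values were adjusted by Benjamini-Hochberg within each type. The 95% intervals use Newcombe's method on pooled counts divided by the dispersion, whereas ∆PSI is the difference of the mean PSI of the libraries. The reads carry no molecular identifiers, so limits for 0 reads describe counting error only, while the intervals also hold the shared dispersion. For genes, log2(rpm + 0.5) was tested with limma (eBayes, trend on) for the 10147 genes that reached a mean of 10 reads, at 5449695 to 6337736 reads of stand-in events per library. Exact permutation tests used scipy 1.17.1, sequences pysam 0.24.0 and GENCODE 44.

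The members and lists were chosen with earlier results of these data known. Named by rule were called events, the event of each gene with the most reads and a mean PSI of 5% to 95%, the event with the smallest p, and known alternative exons. For MYO18A and PPP1R12A, cassette exons with a mean PSI of 5% to 95% were named as well, a rule under which no MYL6 event was named. Of the other actomyosin genes, called ones and at most 5 events with the smallest p were named. Names outside these rules are marked in the text. Of the items these rules name, 1 known alternative exon and 1 event of the other actomyosin genes are not reported here, nor is 1 group of those genes on its own. Alternatives covered the spread, the minimum of reads, the limit on ∆PSI, the adjustment, the lengths, shared exons, the pseudocount, the scaling, the reads standing for a gene and each library left out.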

Additional observations from a re-analysis of the deposited data

How the results depend on the processing

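No member event was called under any of 17 alternatives (0 to 13 events with an unadjusted p under 0.05) and no member gene under any of 12 (1 to 3 genes). The log2 fold change of KHDRBS1 stayed between 1.94 and 2.01. Over all events, 62 were called, against 2 with own dispersions, 3 with limma fitted to logit PSI, 1357 with the likelihood ratio test, 106 at a limit of 5 points and 172 without a limit. The 62 became 18 when groups at a PSI of 0 or 100% were counted as measured spread. This was the first version run. It was replaced after its count over all events had been seen, so this alternative was chosen after seeing the data. Over all genes, 5 were called, against 2 at a mean of at least 50 reads, 3 with median of ratios scaling, 3 with the sum over events and 1 to 12 with a library left out. Other actomyosin events called were 4 with the likelihood ratio test (CALD1, ECT2, MYO5C and GIPC1), 1 without a limit and 1 at a limit of 5 points (CALM2), and 0 to 1 with a library left out. The cause was not tested.

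Of 305 refits of 18 named member events, 13 changed sign and 0 passed the threshold. Without length division the 162 nt exon of MYL12A gave 0.137 points. With a library left out, the ranges that include a change of sign were -5.20 to 3.24 points for this exon, -0.600 to 0.187 for the 83 nt exon of MYL12A, -1.50 to 2.18 for the 74 nt exon of MYH10, -0.294 to 0.255 for the 30 nt exon of MYO6, -0.574 to 3.18 for the MYO18A intron and -5.11 to 1.53 for the 3ʹ splice site of PPP1R12A exon 13. The log2 fold change ran from -0.0105 to 0.117 for MYL6 and from -0.238 to 0.000307 for PPP1R12A. These sign changes lie among values near 0 or with few reads.

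No paired analysis was possible because the lists of counts carry no replicate numbers. Depth limits the events with few reads, in MYL6 as in the other genes, and the widest intervals were those of MYO18A events.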
